A study of Mus musculus with 15 samples.

Results

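The genes described here make, load and edit MHC class II molecules in the mouse. They were taken by symbol as *Ciita*, *Cd74*, *H2-Aa*, *H2-Ab1*, *H2-Eb1*, *H2-DMa*, *H2-DMb1*, *H2-DMb2*, *H2-Oa* and *H2-Ob*, which are 10 of the 21669 genes with a symbol. All 10 passed the filter on low values (at least 1 RPKM in at least 3 of the 15 columns), as did 11299 genes in all. Of the 10, 9 held at least 1 RPKM in all 15 columns and *H2-Oa* did so in 14, so that none passed through 1 group alone. Poly(A) RNA from wild-type female C57BL/6J mice was sequenced in 5 groups of 3 libraries. Naive B cells (nB) were CD43- spleen cells that received no stimulus and no drug. After 3 days in culture with LPS, Il2 and Il5, activated B cells were sorted as B220+GL7+CD138- (actB) and plasmablasts as CD138+ (Pb). Each culture held DMSO, the vehicle, or 2 μM GSK343, an inhibitor of the histone methyltransferase EZH2. For the Pb libraries with GSK343, the labels name Il6 where those of all other cultures name Il5. The study's text gives the same cytokines with and without the drug. If the label holds, GSK343 and this cytokine cannot be told apart in Pb. No mutation or transgene is given for any group. The labels mark the libraries of every group with the letter m and a number from 1 to 3, without saying whether a number is 1 mouse. The study's text calls the libraries of a cell type biological replicates, and p-values measure the spread between them.

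MHC class II molecules display peptides from endocytosed proteins to CD4+ T cells. *H2-Aa*, *H2-Ab1* and *H2-Eb1* encode the peptide-binding chains, and C57BL/6 mice make no chain to pair with that of *H2-Eb1*. The invariant chain, from *Cd74*, fills the groove of a new molecule and guides it to endosomes. There H2-DM, made of *H2-DMa* with *H2-DMb1* or *H2-DMb2*, exchanges the remnant of the invariant chain for peptides. H2-O, made of *H2-Oa* and *H2-Ob*, binds H2-DM and inhibits it, mainly in B cells. The coactivator CIITA, from *Ciita*, binds no DNA itself and is recruited to the promoters of the family by RFX, CREB and NF-Y, which sit on the X and Y boxes. Plasma cells are known to silence *Ciita* through Blimp-1, the product of *Prdm1*.

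Promoters that carry the X and Y boxes are shown for *H2-Aa*, *H2-Eb1*, *H2-Oa* and *H2-Ob*, since they hold the letters that RFX and NF-Y are known to read and *H2-Ob* is 1 of the genes called with GSK343 further on. The sequences are from RefSeq (GRCm38.p6), were placed in mm9 by exact match, and read 5′ to 3′ on the strand of the gene. Capitals mark the letters NGNAAC, within the X box, and GATTGG, the core of the Y box; NGNAAC was relaxed from AGCAAC after the windows had been read.
H2-Oa, chr17:34229232-34229290, plus strand: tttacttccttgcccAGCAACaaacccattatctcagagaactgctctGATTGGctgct
H2-Ob, chr17:34375747-34375802, plus strand: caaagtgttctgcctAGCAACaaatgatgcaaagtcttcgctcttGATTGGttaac
H2-Aa, chr17:34424807-34424865, minus strand: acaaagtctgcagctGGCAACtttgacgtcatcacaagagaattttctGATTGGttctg
H2-Eb1, chr17:34442705-34442762, plus strand: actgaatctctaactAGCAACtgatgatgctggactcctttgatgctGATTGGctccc

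Of the 10 genes, 7 matched the RefSeq table, with 8 promoter windows of 300 bases (250 before to 50 after the start). *Cd74*, *H2-Ab1* and *Ciita* had no entry. NGNAAC followed by GATTGG on the strand of the gene, with 10 to 40 bases between, was found in 5 of the 8 windows and in 0.865% of all 32851 windows. These were the windows of *H2-Oa*, *H2-Ob*, *H2-Aa*, *H2-Eb1* and *H2-DMb1*. The pair stood 24 bases apart in *H2-Ob*, 26 in *H2-Eb1*, and 27 in *H2-Oa*, *H2-Aa* and *H2-DMb1*. On either strand the pair occurred in 1.69% of all windows, NGNAAC alone in 84.7%, AGCAAC in 14.8% and GATTGG in 16.1%. Of the 8 windows of the family, 3 held AGCAAC and 7 held GATTGG. Since NGNAAC was relaxed after these windows had been read, the 5 of 8 is no test of enrichment. The start site in each of these 5 windows lies within 119 bases of the start of its gene in the mm9 annotation used for positions. Those in the windows of *H2-DMa* lie 9664 and 12350 bases before the annotated start, and that of *H2-DMb2* 1942 bases inside the gene. The windows of *H2-DMa* and *H2-DMb2* are therefore not compared. A match is a description of the letters and not of binding.

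The mm9 annotation (GENCODE vM1) places 8 of the 10 genes on chromosome 17 between *H2-Oa* (34229285-34232179) and *H2-Eb1* (34442828-34453144), the class II region. *H2-DMa* (34272127-34276046), *H2-DMb2* (34280252-34288498) and *H2-DMb1* (34290017-34297168) lie next to each other, followed by *H2-Ob* (34375848-34390850), *H2-Ab1* (34400154-34406363) and *H2-Aa* (34406276-34424772). *H2-Aa* and *H2-Ab1* share 17 exon bases on opposite strands, 0.856% of those of *H2-Aa*. *Ciita* lies apart on chromosome 16 (10480237-10527657). *H2-DMb1* and *H2-DMb2* are near-copies, and 27.1% of the stretches of 50 bases in *H2-DMb1* transcripts also occur in *H2-DMb2*, so that reads of these genes may have been split between them with error.

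Libraries held 19421830 to 26307413 reads, and the 3 reads that a count of 0 allows equal at most 0.154 RPM. Replicates 1 and 2 of nB differed by less than the sampling noise (chi-square per degree of freedom 0.00958, against at least 3.58 for any other pair of libraries of 1 group) and were counted as 1 library, which leaves n = 2 for nB. The replicate 2 libraries of both actB groups stood apart, with 16.7 to 29.7 per degree of freedom from the others of their group, where the other pair gave 3.80 and 6.07. So did replicate 2 in Pb, with 7.64 to 11.4 against 3.58 and 3.68. The replicate 2 libraries of actB also held the highest RPKM of their group for all 10 class II genes. In Pb with GSK343, replicate 2 was the highest and replicate 1 the lowest of the group for all 10 genes. The summed level of 8 B cell markers was 11830 to 12220 RPM in nB, 5811 to 6757 in actB with DMSO and 2867 to 2883 in Pb with DMSO, and that of 7 plasmablast markers was 908 to 970, 1528 to 1613 and 8099 to 8476. *Ezh2* itself was at 101 ± 6.26 RPKM in actB with DMSO and at 120 ± 12.4 with GSK343 (log2 fold change 0.25, SE 0.08, adjusted p = 0.0705), a level that does not measure the enzyme's activity.

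**Figure D1:**
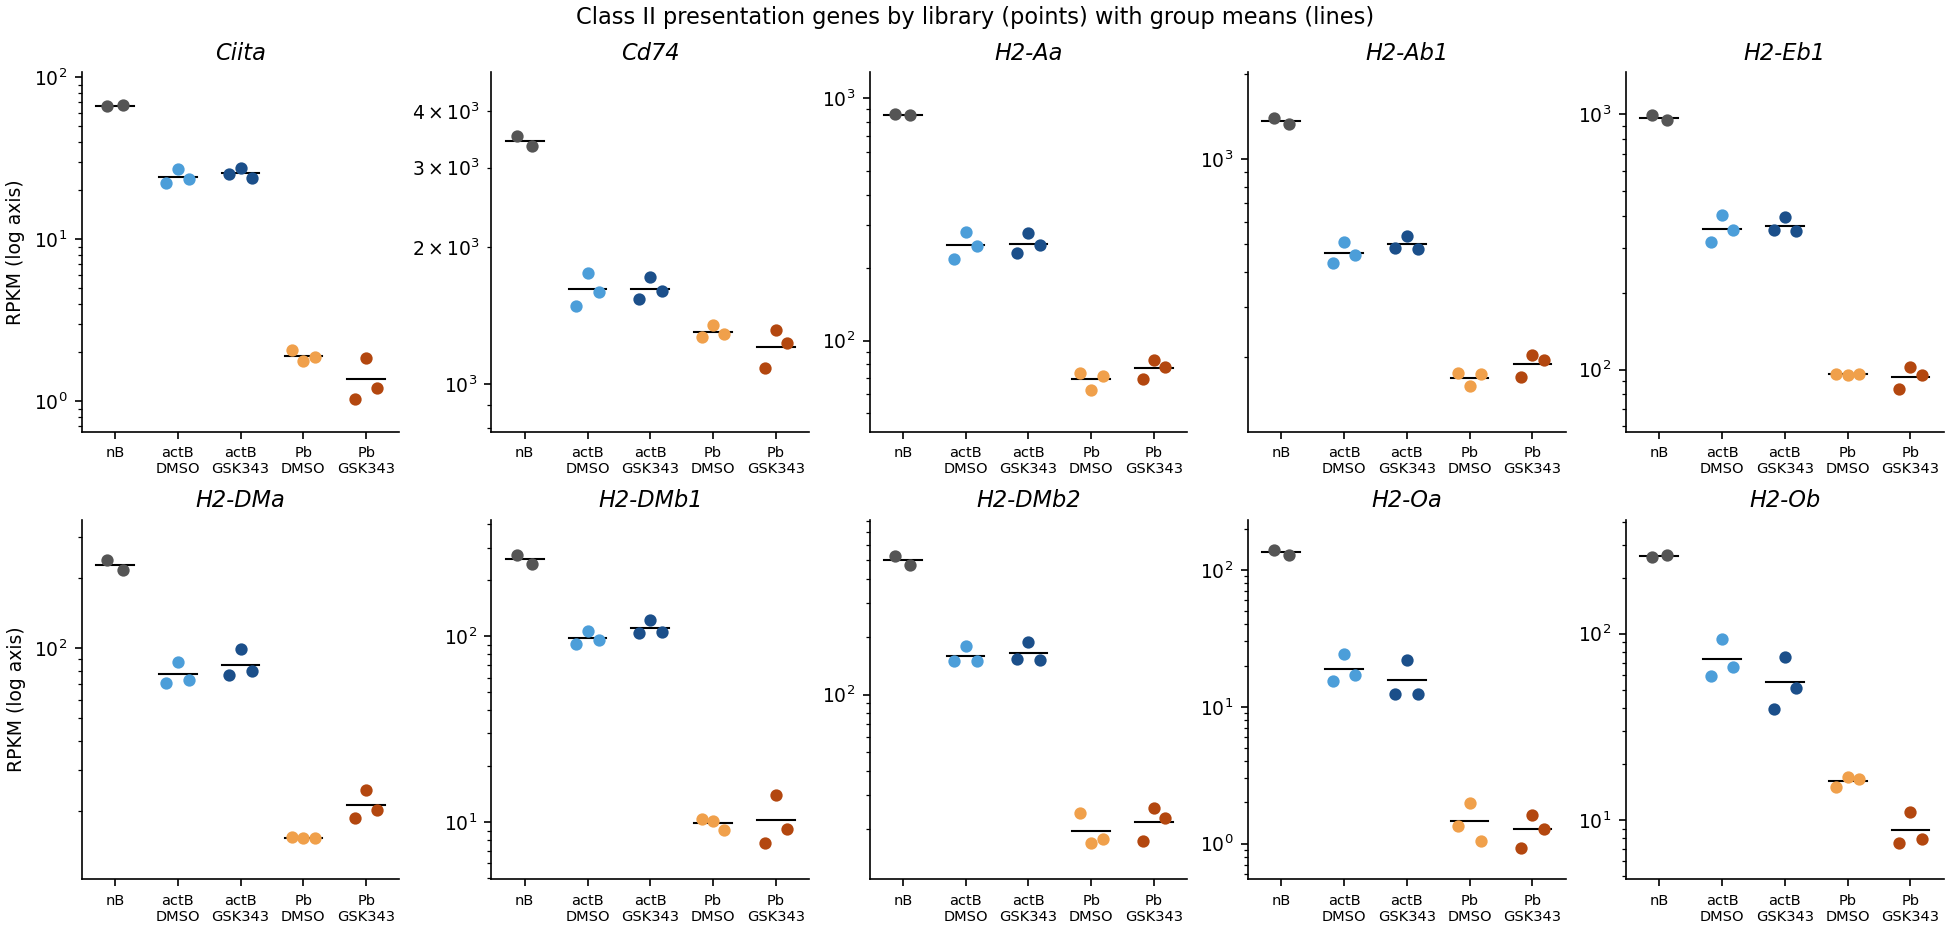
RPKM (log axis, with its own range for each gene) of the 10 class II genes in nB (n = 2) and in actB and Pb with DMSO or GSK343 (n = 3 each). Points are libraries and lines are group means: all 10 genes step down from nB to actB and again to Pb, *Ciita* from 66.8 to 1.90 and *Cd74* from 3438 to 1302.

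In nB the levels per length spanned 66.8 to 3438 RPKM. The order of the mean levels was *Cd74* (3438 ± 133 RPKM), *H2-Ab1* (1367 ± 45.9), *H2-Eb1* (969.9 ± 32.6), *H2-Aa* (856 ± 9.62), *H2-DMb2* (501 ± 38.7), *H2-Ob* (262 ± 3.08), *H2-DMb1* (259 ± 20.4), *H2-DMa* (227 ± 16.2), *H2-Oa* (134 ± 7.57) and *Ciita* (66.8 ± 0.367; SD, n = 2 throughout). *H2-Ob* and *H2-DMb1*, neighbours in this order, did not differ beyond their spread. The length given by the authors sets the level of a gene: it is 3324 bases for *H2-Aa*, where the exons of GENCODE vM1 cover 1987, so its place below *H2-Ab1* can depend on the length used. Together the 10 genes took 1.49% ± 0.0453 of the counted reads in nB.

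The whole family was lower after activation. Levels here and below are relative to all counted reads of a library, and amounts per cell were not measured. The study's text describes RNA content as expanding when B cells differentiate. All 10 genes were lower in actB with DMSO than in nB, where 36.3% of all genes tested were lower, and no library of one group reached into the other, as was the case for 83.4% of all genes. The median change of the 10 was -1.56 on the log2 scale (from -2.84 to -1.09), against a median of 0.05 over all genes. Tests here and below are those of limma on log2(RPKM + 0.25), two-sided, with p adjusted by Benjamini-Hochberg over 11299 genes. Markers of other cells moved with it. Of 13 dendritic and myeloid cell markers tested 10 were lower and 1 higher, and the sum over the 16 measured was 521 to 673 RPM in nB, 180 to 275 in actB and 124 to 312 in Pb with DMSO. All 9 T and NK cell markers were lower, with sums of 118 to 124 RPM in nB and 11.1 to 14.9 in actB. The dendritic and myeloid sum rested on different genes by stage: *Lyz2* gave 34.1% of it in nB, *Flt3* 81.5% in actB and *Ly6c2* 82.3% in Pb, the last 2 groups with DMSO. Of single markers, *Lyz2* went from 166 to 0.422 RPKM on activation, *Itgax* from 22.9 to 0.0340 and *Zbtb46* from 1.55 to 0.230, whereas *Flt3* rose from 12.2 to 47.2, and *Batf3* (2.96 and 2.97) and *Itgam* (4.02 and 4.27) were not called. Of the 16, 8 were under 0.5 RPM in actB, against 1 in nB. The part of these cells in the fall was not tested, and in bulk RNA fewer cells of a type and less RNA per cell cannot be told apart.

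In Pb all 10 genes were lower again, against 42.4% of all genes tested that were lower in Pb than in actB with DMSO. The median change was -2.22 (from -3.51 to -0.31), and no libraries overlapped, nor did those of 71.9% of all genes. The median over all genes was -0.12 here, and libraries scaled to a median change of 0 gave 3899 genes lower and 3813 higher in place of 4791 and 3086. From nB to Pb with DMSO, all 10 genes were lower, where 41.1% of all genes were. From actB to Pb, the estimates for *Ciita* and for the H2-DM and H2-O genes lay below those for the peptide-binding chains, and that for *Cd74* lay closest to 0; differences between genes were not tested.

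*Ciita*, the coactivator of the family, held 66.5 and 67.1 RPKM in the nB libraries. It held 22.2, 27.0 and 23.4 RPKM in actB with DMSO and 2.06, 1.76 and 1.87 in Pb with DMSO, so that each stage lay apart from the next. The log2 fold change was -1.46 (SE 0.16, adjusted p = 3.45e-06) from nB to actB and -3.51 (SE 0.145, adjusted p = 6.85e-10) from actB to Pb, an 11.4-fold lower level. The second fall ranked 14 of 11299 genes from the largest. Pb with DMSO kept 2.84% of the nB level of *Ciita*, with no fewer than 346 reads in any of its libraries.

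The chains that bind peptide fell at both steps. *H2-Aa*, the alpha chain of H2-A, held 863 and 849 RPKM in nB, 217, 279 and 246 in actB with DMSO, and 73.7, 62.3 and 71.2 in Pb with DMSO. Its log2 fold change was -1.80 (SE 0.11) at the first step and -1.83 (SE 0.10) at the second. Of the beta chains, *H2-Ab1* changed by -1.56 (SE 0.09) and -1.46 (SE 0.08), and *H2-Eb1* by -1.45 (SE 0.10) and -1.88 (SE 0.09). All 6 of these changes had adjusted p of at most 3.52e-08. The levels left in Pb with DMSO were 8.07% of nB for *H2-Aa*, 9.89% for *H2-Eb1* and 12.4% for *H2-Ab1*. *H2-Aa* fell somewhat more than its partner *H2-Ab1*, so that their RPKM ratio went from 0.627 ± 0.0140 in nB to 0.530 ± 0.0219 in actB and 0.408 ± 0.0131 in Pb, with no overlap between these groups.

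*Cd74*, the invariant chain, stayed high. It held 3532 and 3344 RPKM in nB, 1486, 1759 and 1598 in actB with DMSO, and 1271, 1345 and 1289 in Pb with DMSO. The libraries of each stage lay below those of the stage before it. The log2 fold change was -1.09 (SE 0.09, adjusted p = 2.15e-07) on activation and -0.31 (SE 0.08, adjusted p = 4.53e-03) on Pb formation. That second change lost its call with median scaling (-0.20, adjusted p = 0.0683) and with edgeR on recovered reads with RLE factors (-0.20, adjusted p = 0.0502). Quantile normalization, which sets the most abundant genes to shared values, gave *Cd74* -0.39 on activation and -0.73 on Pb formation, both called. Relative to all counted reads, Pb with DMSO kept 37.9% of the nB level of *Cd74*, and for the other 9 genes between 1.08% and 12.4%. *Cd74* made up 32.6% ± 0.283 of the reads of the 10 genes in nB, 41.5% ± 0.921 in actB and 69.2% ± 1.54 in Pb. The RPKM of *Cd74* per RPKM of *H2-Aa* was 4.02 ± 0.110 in nB, 6.55 ± 0.273 in actB and 19.0 ± 2.29 in Pb. Over all 10 genes, the share of counted reads was 0.552% ± 0.0592 in actB and 0.266% ± 0.00197 in Pb with DMSO.

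**Figure D2:**
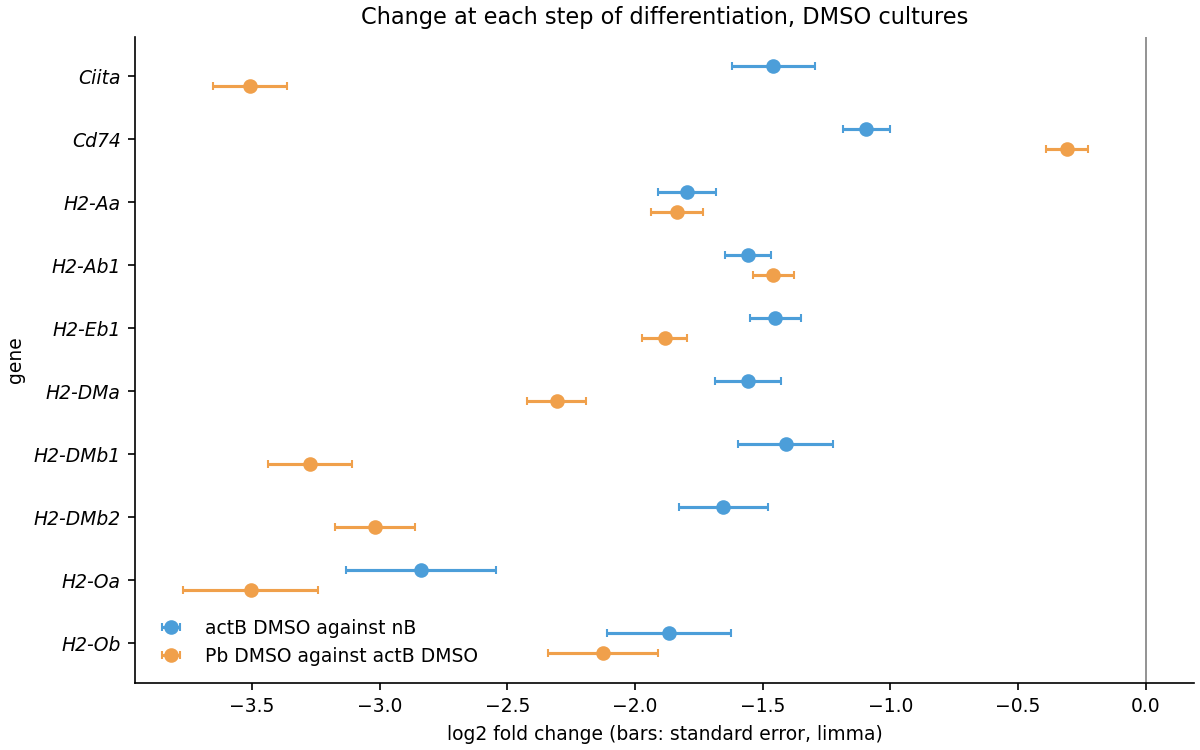
Log2 fold change (points) with its standard error (bars) for each class II gene from nB to actB with DMSO and from actB to Pb with DMSO, by limma over 14 libraries. The first step spans -2.84 to -1.09 and the second -3.51 to -0.31, where *Cd74* sits closest to 0 and *Ciita* and *H2-Oa* farthest.

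The subunits of H2-DM, the peptide editor, fell together on activation and unequally on Pb formation. *H2-DMa* held 239 and 216 RPKM in nB, 71.1, 87.2 and 73.1 in actB with DMSO, and 15.4, 15.3 and 15.3 in Pb with DMSO. Its log2 fold change was -1.56 (SE 0.13) and then -2.31 (SE 0.12, adjusted p = 3.29e-09). The estimates for the beta subunits were lower at the second step, *H2-DMb1* with -3.27 (SE 0.17) from 97.5 to 9.86 RPKM and *H2-DMb2* with -3.02 (SE 0.16) from 159 to 19.6 RPKM, and were left at 3.80% and 3.92% of nB, against 6.76% for *H2-DMa*. Reads that *H2-DMb1* and *H2-DMb2* share could not be assigned with certainty to either, which touches their levels and any contrast between them.

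H2-O, the inhibitor of H2-DM, lost its alpha subunit more than its beta subunit. *H2-Oa* held 140 and 129 RPKM in nB, 15.4, 24.5 and 16.9 in actB with DMSO, and 1.34, 1.98 and 1.04 in Pb with DMSO. Its log2 fold change of -2.84 (SE 0.30, adjusted p = 1.86e-06) on activation and of -3.50 (SE 0.26, adjusted p = 1.30e-07) on Pb formation left 1.08% of the nB level, the lowest of the 10, on as few as 39 reads per library in Pb with DMSO. *H2-Ob* held 260 and 264 RPKM in nB, 59.4, 93.6 and 66.0 in actB with DMSO, and 15.1, 17.0 and 16.7 in Pb with DMSO. It changed by -1.87 (SE 0.24) and -2.13 (SE 0.22), and 6.21% of the nB level was left. *H2-Ob* was thus 1.95 ± 0.133 times as abundant per length as *H2-Oa* in nB, 3.86 ± 0.0356 times in actB with DMSO, and 11.3, 8.59 and 16.1 times in the Pb libraries with DMSO.

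The balance of H2-O to H2-DM was taken as the mean log2(RPKM + 0.25) of the H2-O genes minus that of the H2-DM genes, as a description with no test. It was -0.77 and -0.66 in nB, -1.70, -1.30 and -1.59 in actB with DMSO, and -1.70, -1.18 and -1.56 in Pb with DMSO. The balance was lower in both cultured stages than in nB. The libraries of actB and Pb with DMSO overlapped, with Pb replicate 2 above all of actB. The difference of means was 0.05 (between -0.10 and 0.17 with 1 library left out). With GSK343 the balance was -2.25, -1.69 and -2.08 in actB and -2.20, -2.20 and -2.22 in Pb. All 3 Pb libraries with GSK343 lay below the 3 with DMSO, by 0.72 in the mean, and in actB the difference of means was -0.48, where 1 library with GSK343 lay above 1 with DMSO. Within replicate numbers the balance was lower with GSK343 in 3 of 3 pairs at both stages, with differences of -0.55, -0.39 and -0.49 in actB and of -0.50, -1.02 and -0.66 in Pb. In Pb the balance in part restates the changes of *H2-Ob* (-0.88) and *H2-DMa* (0.45), which are called further on. *H2-Oa*, *H2-DMb1* and *H2-DMb2* changed there by -0.15, 0.02 and 0.15 and were not called.

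**Figure D3:**
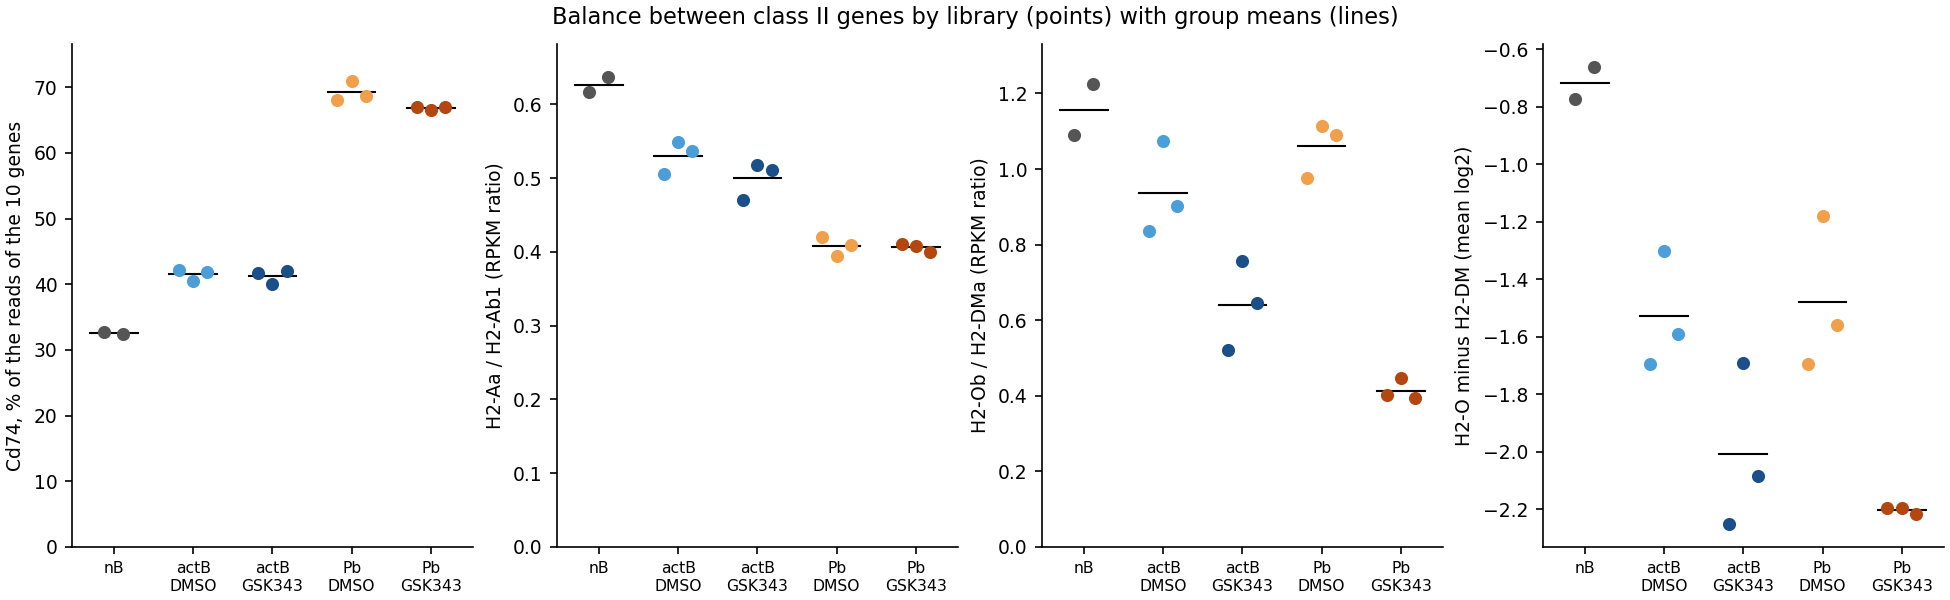
Share of the reads of the 10 genes that belong to *Cd74* (%), RPKM ratios of *H2-Aa* to *H2-Ab1* and of *H2-Ob* to *H2-DMa*, and mean log2(RPKM + 0.25) of H2-O minus H2-DM genes, by library (points) with group means (lines). *Cd74* reaches 69.2% in Pb with DMSO, and *H2-Ob* per *H2-DMa* in Pb is 1.06 with DMSO and 0.413 with GSK343. *H2-Ob* and *H2-DMa* are the genes called with GSK343 in Pb, so this ratio is not separate from those calls.

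GSK343 against DMSO asks whether inhibition of EZH2 changes the family at either stage. In actB none of the 10 genes passed the test, where 10.4% of all genes did, and 0 of 10 separated the groups, against 25.9% of all genes. None reached an unadjusted p under 0.05 in limma, and edgeR on recovered reads also called 0. The scaling moved the split of all calls, from 926 genes higher and 244 lower to 690 and 370 with median scaling and 606 and 378 with quantile normalization. *Ciita* held 25.4, 27.3 and 23.8 RPKM with GSK343, within the range of the DMSO libraries or just above it (log2 fold change 0.08, SE 0.145, adjusted p = 0.814). *Cd74* and the peptide-binding chains differed by 0.01 to 0.11 on the log2 scale, with SE of 0.08 to 0.10. *H2-DMa*, *H2-DMb1* and *H2-DMb2* were each higher with GSK343 in 3 of 3 pairs of libraries with the same number, by 0.04 to 0.18 in the fit, and did not pass. *Ciita* and *H2-Ab1* were also higher in 3 of 3 pairs.

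The H2-O genes had the lowest log2 fold changes of the family with GSK343 in actB. *H2-Ob* held 39.7, 74.8 and 51.3 RPKM with GSK343, where the DMSO libraries held 59.4, 93.6 and 66.0. The groups overlapped, with replicate 2 high in both, and within each replicate number the GSK343 library was lower (by 0.58, 0.32 and 0.36 on the log2 scale). The log2 fold change of *H2-Ob* was -0.42 (SE 0.22, adjusted p = 0.257). With the replicate number as a block it passed (adjusted p = 0.0185 and 0.0413, with the merged nB library as number 1 or 2; 21.4% and 17.1% of all genes passed so), as it did with replicate 2 left out of every cultured group (-0.47, adjusted p = 0.0206, with 15.4% of all genes). *H2-Oa* held 12.4, 22.1 and 12.5 RPKM with GSK343 and was lower in 3 of 3 pairs, with a log2 fold change of -0.30 (SE 0.26, adjusted p = 0.553) that did not pass with the block either.

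In Pb, 2 of the 10 genes passed the test, *H2-DMa* and *H2-Ob*, where 12.9% of all genes did. The same 2 of 10 separated the groups, against 34.1% of all genes. The genes went in opposite directions. *H2-DMa* held 18.7, 24.7 and 20.2 RPKM with GSK343, all above the 15.4, 15.3 and 15.3 RPKM with DMSO. Its log2 fold change was 0.45 (SE 0.12, adjusted p = 0.0235), a 1.37-fold higher level, with 3 of 3 pairs higher. *H2-Ob* held 7.51, 10.99 and 7.93 RPKM with GSK343, all below the 15.1, 17.0 and 16.7 RPKM with DMSO. Its log2 fold change was -0.88 (SE 0.22, adjusted p = 0.0199), a 1.84-fold lower level, with 3 of 3 pairs lower. *H2-Ob* per *H2-DMa* was thus 0.401, 0.446 and 0.393 with GSK343 and 0.976, 1.11 and 1.09 with DMSO.

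Both calls were close to the threshold and rested on the full set of libraries. The call of *H2-DMa* was lost without Pb DMSO replicate 1 (adjusted p = 0.0662), 2 (0.0598) or 3 (0.0666) and without Pb GSK343 replicate 2 (0.0775) or 3 (0.0588). The call of *H2-Ob* was lost without Pb DMSO replicate 2 (adjusted p = 0.0572) or 3 (0.0622) and without Pb GSK343 replicate 1 (0.0810) or 3 (0.0773). The log2 fold change stayed between 0.34 and 0.53 for *H2-DMa* and between -1.05 and -0.78 for *H2-Ob* with any 1 library left out. Some B cell markers were also lower with GSK343 in Pb, namely 3 of 8 (*Fcer2a* by -1.56, *Cr2* by -0.67 and *Ms4a1* by -0.63). Of all 11299 genes tested, 565 were lower. The other 5 markers were not called, with log2 fold changes from -0.63 (*Cd22*) to 0.04 (*Ptprc*). The sum of the 8 was 2465 to 2706 RPM with GSK343 against 2867 to 2883 with DMSO. Of 7 plasmablast markers 1 was higher and 1 lower (*Irf4*, -0.25), *Prdm1* and *Slamf7* had log2 fold changes of -0.04 and -0.15, and their sums overlapped (8110 to 8721 RPM, and 8099 to 8476 with DMSO). The higher one, *Sdc1*, which encodes the CD138 used in the sort, was at 55.3 ± 3.09 RPKM with GSK343 and 29.7 ± 0.826 with DMSO (log2 fold change 0.89, adjusted p = 5.75e-04). The part of these shifts in the change of *H2-Ob* was not tested.

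The remaining 8 genes did not pass in Pb. *Ciita* held 1.04, 1.85 and 1.21 RPKM with GSK343, where the DMSO libraries held 2.06, 1.76 and 1.87. Replicates 1 and 3 lay below all DMSO libraries and replicate 2 among them. The log2 fold change was -0.44 (SE 0.145, adjusted p = 0.0672). It passed without Pb GSK343 replicate 2 (-0.65, adjusted p = 0.00225), with replicate 2 left out of every cultured group (-0.69, adjusted p = 7.81e-04, with 17.5% of all genes), with quantile normalization (-0.51, adjusted p = 0.0349), with all 15 columns as deposited (adjusted p = 0.0479) and with the replicate block (adjusted p = 0.0232 and 0.0359, where 24.6% and 20.5% of all genes passed). *Cd74* was lower in 3 of 3 pairs, with a log2 fold change of -0.11 (SE 0.08, adjusted p = 0.428). *H2-Aa*, *H2-Ab1*, *H2-Eb1*, *H2-DMb1*, *H2-DMb2* and *H2-Oa* had log2 fold changes of -0.15 to 0.16, and each was higher in some pairs and lower in others. *H2-DMb1* and *H2-DMb2*, partners of *H2-DMa*, had wide spreads between pairs, from -0.43 to 0.46 and from -0.47 to 0.58.

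**Figure D4:**
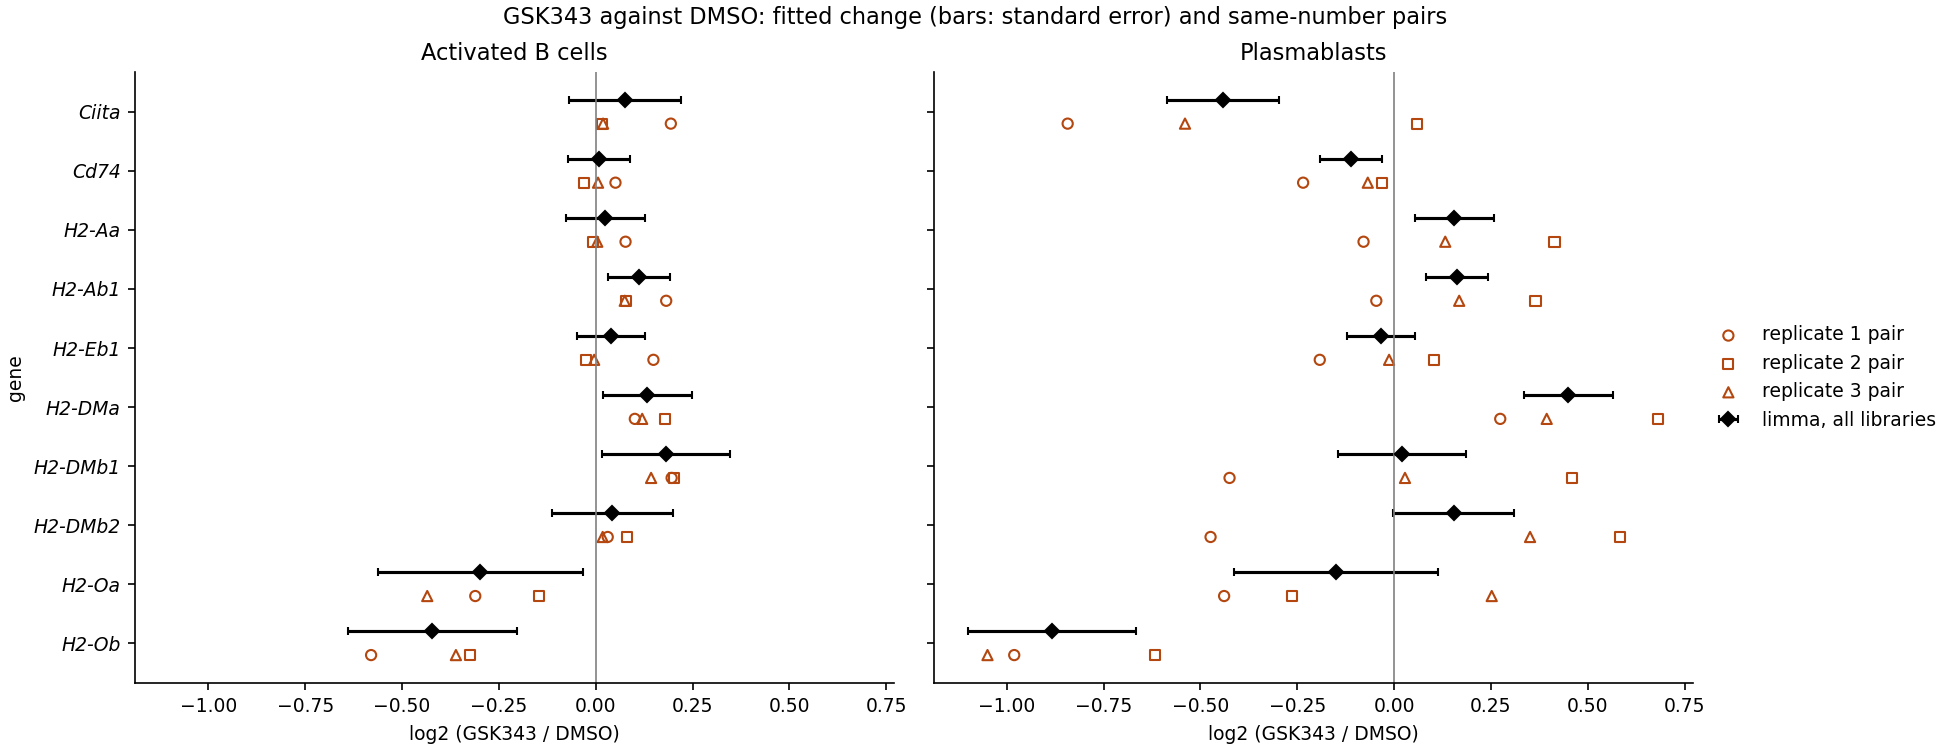
Log2 ratio of GSK343 to DMSO for each class II gene in actB and in Pb. Diamonds with bars are the limma estimate and its standard error, and open symbols are the 3 pairs of libraries with the same replicate number: *H2-Ob* is below 0 in all pairs of both stages, and *Ciita* in Pb has replicate 2 at 0.06 and the other pairs at -0.84 and -0.54.

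The effects of GSK343 in actB and Pb were compared by an interaction term, which called none of the 10 genes and 0.248% of all genes (11 higher and 17 lower, or 21 and 12 with median scaling and 9 and 9 with quantile normalization). In edgeR on recovered reads the term also called 0 of the 10, and 1 of them had an unadjusted p under 0.05 in limma. This was *Ciita*, with a difference of -0.52 (SE 0.21, adjusted p = 0.458). It passed without Pb GSK343 replicate 2 (-0.72, adjusted p = 0.0442) and with replicate 2 left out of every cultured group (-0.80, adjusted p = 0.0194, with 1.29% of all genes). The difference was -0.46 (SE 0.31, adjusted p = 0.785) for *H2-Ob* and 0.32 (SE 0.16, adjusted p = 0.640) for *H2-DMa*, so that an effect in Pb that differs from that in actB was not shown for either.

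The factors that recruit CIITA went both ways at both steps. Of 7 class II promoter factors, 2 were higher and 3 lower in actB with DMSO than in nB. Of all genes tested, 40.9% were higher and 36.3% lower there. In Pb, 1 of the 7 was higher and 5 were lower than in actB with DMSO, where 27.3% and 42.4% of all genes were. *Rfx5*, a subunit of RFX, changed by -0.71 and then by -1.18, from 23.6 to 14.4 and 6.18 RPKM. *Creb1* changed by -1.36 at the second step and *Nfya* by -0.56. With GSK343, *Creb1* alone of the 7 passed in limma, lower by -0.17 in actB and by -0.18 in Pb.

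Of 13 factors known to act on *Ciita* in B lineage cells, 6 were higher and 6 lower on activation, where 40.9% and 36.3% of all genes were. On Pb formation 3 were higher and 8 lower, against 27.3% and 42.4% of all genes. *Prdm1*, the repressor of *Ciita*, went from 1.22 ± 0.0488 RPKM in nB to 31.3 ± 1.35 in actB and 121 ± 4.96 in Pb with DMSO. *Zbtb32*, a partner of Blimp-1, peaked in actB with DMSO at 222 ± 9.71 RPKM (1.39 in nB and 27.5 in Pb). On Pb formation *Spib* fell by 3.38 and *Pax5* fell by 2.72 on the log2 scale, *Irf4* rose by 1.76, and *Irf1* and *Irf2* were not called. With GSK343, 0 of the 13 passed in actB in limma or edgeR, with 2 at an unadjusted p under 0.05. In Pb 4 were lower, where 565 of all 11299 genes tested were. They were *Pax5* (-1.11), *Zbtb32* (-0.65), *Ebf1* (-0.60) and *Irf4* (-0.25), while *Prdm1* held 121 RPKM with DMSO and 117 with GSK343.

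Class I presentation had more genes higher than lower at both steps. Of its 17 genes, 11 were higher and 0 lower in actB with DMSO than in nB, where 40.9% of all genes were higher, and 8 were higher and 3 lower in Pb than in actB with DMSO, where 27.3% were higher. *Nlrc5*, the class I counterpart of *Ciita*, rose by 1.62 on activation (SE 0.18) and held 62.5 RPKM in actB and 55.5 in Pb, where *Ciita* fell to 1.90. *Calr* and *Tapbpl*, which help class I molecules fold and load, rose by 1.21 and 1.06 on Pb formation. Other genes within or next to the class II region went both ways. Of 11 tested, 6 were higher and 4 lower on activation, where 36.3% of all genes were lower. On Pb formation 1 was higher and 4 were lower, against 42.4% lower over all genes. *H2-Eb2*, a class II chain gene next to *H2-Eb1*, was among the lower ones, with -2.20 and then -1.16. *Tap1*, *Tap2*, *Psmb8* and *Psmb9* count in both of these lists. With GSK343 in Pb, 3 of the 17 class I genes were higher (*Tapbpl*, *Calr* and *Pdia3*, by 0.21 to 0.28), where 893 of all 11299 genes tested were. Of the 11 in the region, 0 were called by limma or edgeR and 0 had an unadjusted p under 0.05.

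Genes of endosomal proteases and processing were mostly lower on activation and went both ways in Pb. Of these 11 genes, 10 were lower in actB with DMSO than in nB, where 36.3% of all genes were. In Pb 6 were higher and 3 lower than in actB, where 27.3% and 42.4% of all genes were. *Ctss*, which trims the invariant chain in B cells, changed by -1.40 on activation, and *Ctsd* rose by 2.06 on Pb formation while *Ctsh* changed by -1.93. With GSK343, 2 were higher in actB, led by *Lgmn* (0.30), and 4 in Pb, led by *Ctsh* (0.73) and *Ctsc* (0.67). Of all 11299 genes tested, 926 were higher with GSK343 in actB and 893 in Pb. Of 8 genes of class II turnover and surface cofactors, 6 were lower on activation, against 36.3% of all genes. They were led by *March1*, the ligase that marks class II for degradation (-4.86). On Pb formation 4 were higher and 4 lower. *March1* was higher with GSK343 in actB (1.11) and *Cd63* in Pb (0.996). With edgeR, 0 of the 8 were called in Pb. Its filter differed from that of limma, and whether *Cd63* passed it is not given. Of 7 costimulatory genes tested, 2 were higher and 3 lower on activation, where 40.9% and 36.3% of all genes were. *Cd80* changed by 2.35 there and *Icosl* by -5.42. On Pb formation 6 were lower, against 42.4% of all genes, led by *Cd86* (-3.27) and *Cd40* (-2.52). With GSK343, *Icosl* was higher in actB (0.70) and 0 of the 7 passed in Pb by limma or edgeR, with 1 at an unadjusted p under 0.05.

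Across the 14 libraries, the members followed each other closely, from a Pearson r of 0.810 between *Ciita* and *Cd74* to 0.999 between *H2-Aa* and *H2-Ab1*. Libraries share stage and depth, so these values describe the stages more than single libraries. Outside the family, *Bmp2k* (0.998), *Cdk19*, *Lrrc61*, *Dhx34*, *Ifngr1*, *Map3k14*, *Tspan32*, *Fam134c*, *Scml4* and *Btg1* (0.995) were most like the mean of *Cd74*, *H2-Aa*, *H2-Ab1* and *H2-Eb1*. Over the 12 cultured libraries the first was *Irf8* (0.999), and 0 of the 10 names recurred. *Siglecg* (0.999), *Tlr9*, *Spib*, *Rassf2* and *Tlr1* (0.997) were most like *Ciita*. An r over 0.9 was common, with 1496 of 11289 genes for the chains and 1466 for *Ciita*.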

How the data were processed

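Paired-end reads of 50 bp were aligned to mm9 by TopHat2 and counted over the exons of Entrez genes. The values deposited by the authors are RPM, summing to 1000000 per library. All values were whole reads (100% within 0.05 reads), so reads were recovered. RPKM is RPM per kilobase of the gene length given in the table. Whether counting used strand is not stated. Genes without a symbol (92, at most 0.09% of reads) were left out. limma 3.58.1 (R 4.3.3) fitted all 14 libraries on log2(RPKM + 0.25) with a variance trend and no covariate, calling genes at an adjusted p under 0.05. The authors' methods name edgeR, which needs counts, so edgeR 4.0.16 on recovered reads was an alternative (11146 genes). limma was tested on simulated data. Alternatives were pseudocounts, filters, scalings, groups, columns, the trend, left-out libraries and, added after seeing the data, replicate 2 left out of every cultured group.

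Members and lists were chosen with earlier results of these data known. Up to 4 called genes with the largest changes are named per list and comparison, beside defining markers near 0. An exact permutation test planned for the balance of H2-O and H2-DM is not given, since 3 libraries against 3 cannot pass. Replicate numbers may pair the samples: deviations from group means correlated for every same-number pair (r 0.158 to 0.713), against -0.603 to 0.370 for different numbers. These ranges overlap and are not independent, since deviations within a group sum to 0. Same-number r was 0.435 to 0.713 for replicate 2, 0.158 to 0.502 for replicate 1 and 0.219 to 0.356 for replicate 3. The labels do not state a pairing. The main fit took no account of it, and the replicate block did.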

Additional observations from a re-analysis of the deposited data

How the results depend on the processing

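Falls with activation and Pb formation held under all alternatives, with 10 genes lower, apart from *Cd74* from actB to Pb (9 genes lower with median scaling and with edgeR RLE factors). For GSK343 in actB, the count of class II genes called went from 0 to 1 with the replicate block (merged nB library as number 1 or 2) and without replicate 2 in any cultured group, in each case *H2-Ob*; of all genes, 10.4% were called without the block and 21.4% or 17.1% with it. For GSK343 in Pb, the count was 2, 0 to 2 with 1 library left out, and 3 with the replicate block, which added *Ciita* and called 24.6% or 20.5% of all genes, against 12.9%. For the interaction, it was 0, 0 to 1 with 1 library left out, and 1 without replicate 2 in any cultured group. The block changed no other call of the 10 genes. No result reversed. Of the values of single genes, 1218 kept their side of the threshold, 11 lost and 11 gained a call; the cause was not tested. The H2-O to H2-DM difference ranged, with 1 library left out, from -0.93 to -0.73 (actB with DMSO against nB), -0.64 to -0.36 (GSK343 in actB) and -0.83 to -0.58 (GSK343 in Pb). Leaving out an nB library leaves 1, assumed to vary like the other groups. *H2-Oa* and *Ciita* in Pb rest on the fewest reads.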
